A study of Mus musculus with 6 samples.

Results

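Translation factors and cytosolic ribosomal proteins were followed in RAW 264.7 cells, a mouse macrophage line, after 1 h of treatment with lipopolysaccharide (LPS) and LPS-binding protein (LBP). The members were chosen by a rule on gene symbols, set with earlier results of these data known. They are the genes whose single annotated symbol starts with Eif or Eef (translation factors), or with Rpl or Rps followed by a digit (ribosomal proteins), leaving out the Rps6k kinases. They came to 110 of the 10698 genes annotated with 1 symbol. Of the 110, 44 were translation factors on 52 probes and 66 were ribosomal proteins on 66 probes. By this rule the factor group also holds kinases and repressors that act on factors, such as Eif2ak2, Eef2k and Eif4ebp1. Total RNA from treated cells (LPS at 100 ng/ml, LBP at 100 pM, 1 h) and from untreated cells cultured for 1 h was hybridised together on each of 6 arrays. The treated RNA carried the dye Cy5 on 3 arrays and Cy3 on the other 3, and in each orientation the arrays are numbered as sets 1 to 3. LPS is a component of the outer membrane of Gram-negative bacteria, and LBP is a serum protein that hands it to its receptor complex on macrophages. The name RAW 264.4 in the title of the series and in some descriptions was read as RAW 264.7, the name in the sample titles.

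Translation starts when the ternary complex of eIF2, GTP and initiator tRNA joins the small ribosomal subunit with eIF1, eIF1A and eIF3, and the cap-binding complex eIF4F, made of eIF4E, eIF4G and the helicase eIF4A, brings the mRNA. In macrophages, LPS signalling is known to act on this machinery largely through phosphorylation, of the eIF4E-binding proteins downstream of mTOR and of eIF4E by the MNK kinases. Ribosomal protein mRNAs are among the most abundant in growing cells, and many begin with a 5′ terminal oligopyrimidine (TOP) stretch, through which mTOR controls their translation more than their amount.

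Each value is a log2 ratio of one channel over the other, so it shows a difference between treated and untreated RNA and never the level of a transcript. On all 6 arrays the Cy5 extract is labelled test and the Cy3 extract control, which makes Cy5 over Cy3 the likely direction, and the sign was turned on the arrays whose treated RNA was in Cy3. If the ratio ran the other way, every sign given here would turn. Within an orientation the arrays correlated at 0.60 to 0.81 over the 11442 probes with a ratio on all 6 arrays, and between orientations, before turning, at -0.63 to -0.15. A gene entered the test if it had a ratio on all 6 arrays, and the test compared the 3 set averages with 0. Of 8331 genes tested, 1097 (13.2%) passed at an adjusted p under 0.05 (499 without set 1), 580 higher (6.96%) and 517 lower (6.21%) in treated RNA. With the orientation means removed, turned ratios of arrays that share a set number correlated at -0.0077, -0.28 and -0.09. After turning, a dye effect shared within a set gives negative values, so this check cannot tell whether the set number paired arrays. An SD over sets can understate how much single arrays differ. The labels do not say that the sets are separate cultures, so p-values cover only how these samples differ among themselves, and that may be technical. The macrophage markers Cd68, Csf1r, Lyz2, Fcgr1 and Adgre1 all had a ratio on all 6 arrays. Whether their transcripts were abundant cannot be read from ratios.

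The mRNA starts of several members are shown first because TOP starts are the sequence feature that ribosomal protein mRNAs are known for, and because most genes found with one had no complete set of ratios. The promoter table of RefSeq (mouse assembly GRCm38.p6), with 250 bases before to 50 bases after each annotated start, held 55 of the 66 ribosomal protein genes and 34 of the 44 factor genes. A TOP start was searched on the gene's strand as a run of at least 5 C or T that begins with C at the annotated start. It was found in 11 of 67 ribosomal protein windows (16.4%) and in 2 of 48 factor windows (4.17%), against 823 of 32851 windows of all genes (2.51%). With up to 5 bases of slack around the start the counts were 25 (37.3%), 11 (22.9%) and 6027 (18.3%). Each line below gives 30 bases, 15 before the annotated start and 15 from it on, with the TOP run in capitals. Rps6, Rpl35 and Rps27 were listed at 0 on every array, and Rpl14, Eif2s3x and Eif3f had all 6 ratios.
Rps6, chr4:86857353-86857382, minus strand: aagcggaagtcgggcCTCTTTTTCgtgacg
Rpl35, chr2:39005117-39005146, minus strand: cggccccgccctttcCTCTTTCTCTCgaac
Rps27, chr3:90213634-90213663, minus strand: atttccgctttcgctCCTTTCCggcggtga
Rpl14, chr9:120571502-120571531, plus strand: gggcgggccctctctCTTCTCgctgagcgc
Eif2s3x, chrX:94212637-94212666, minus strand: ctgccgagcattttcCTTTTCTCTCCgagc
Eif3f, chr7:108934400-108934429, plus strand: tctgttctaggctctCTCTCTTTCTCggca
Of the 11 ribosomal protein genes with a TOP start, 1 had a ratio on all 6 arrays, 7 on some and 3 on none. Over all 66 ribosomal protein genes the counts were 26, 22 and 18. Genes found only with slack were not counted this way, and whether a TOP start goes with lost ratios was not tested. The annotated start can differ from the one these cells use, and no match says only that these letters are not at this position.

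Most ribosomal protein probes had no usable ratio on at least 1 array. An exact 0 in the deposited values was treated as no measured ratio, since between 8.99% and 23.9% of the values on an array are exactly 0. Of the 66 ribosomal protein probes, 26 (39.4%) had a ratio on all 6 arrays, 22 on some arrays and 18 (27.3%) on none, so 40 (60.6%) were lost to the test. Of the 52 factor probes, 42 (80.8%) were complete, 5 partial and 5 without any ratio. Over all 16281 probes, 70.3% were complete, 29.7% were lost and 5.87% had no ratio at all, and among the 13738 probes with 1 symbol 72.6% were complete. The lost share was thus 60.6% in ribosomal protein probes and 19.2% in factor probes, and these shares are a description without a test.

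Probes of the mitochondrial ribosome, whose proteins carry symbols that start with Mrpl or Mrps, were mostly complete. Of their 69 probes, 64 (92.8%) were complete and 0 lacked a ratio on every array. Within the cytosolic ribosome, the small subunit had 5 of 23 probes complete and 8 at 0 throughout, and the large subunit had 21 of 43 complete and 10 at 0 throughout. The difference between the subunits was not tested. On single arrays, 32, 29 and 45 of the 66 ribosomal protein probes had a ratio in sets 1, 2 and 3 of the Cy5 orientation, and 35, 35 and 37 in those of the Cy3 orientation. Set 3 in Cy5 had the most, and no array reached the share of the factor probes, of which 42 to 46 of 52 had a ratio.

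**Figure D1:**
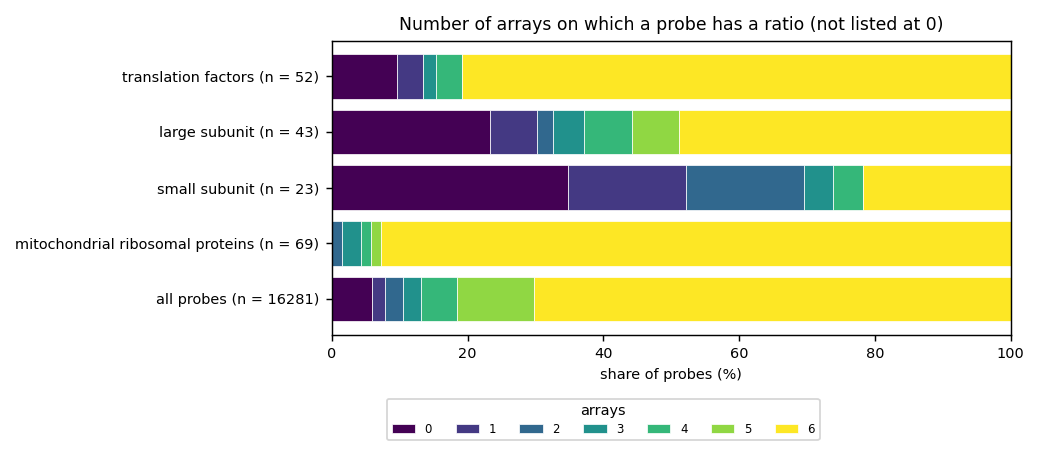
Share of probes (%) by the number of arrays, from 0 to 6, on which the probe has a ratio, for factor probes, large and small subunit ribosomal protein probes, mitochondrial ribosomal protein probes and all probes. The complete share is 80.8% in factors, 39.4% over both cytosolic subunits together and 92.8% in mitochondrial ribosomal proteins, against 70.3% in all probes.

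The ribosomal proteins listed at 0 on all 6 arrays were Rpl4, Rpl6, Rpl7a, Rpl12, Rpl13a, Rpl19, Rpl23, Rpl34, Rpl35 and Rpl37a of the large subunit and Rps4x, Rps6, Rps13, Rps14, Rps16, Rps19, Rps26 and Rps27 of the small subunit. Rps6 is the ribosomal substrate of the S6 kinases, and Rpl13a is known in myeloid cells for leaving the ribosome after interferon-gamma to silence inflammatory mRNAs, and neither had a value here. Among factors, Eef1a1, which delivers aminoacyl-tRNA to the ribosome, Eef1b2, its exchange factor, and Eif5a, which relieves stalled ribosomes, were listed at 0 on all 6 arrays. Rplp0 and Rpsa, ribosomal proteins whose symbols lie outside the naming rule, were also at 0 throughout. Intensities were not used here, so whether these spots were dim, saturated or removed for another reason was not tested.

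The 22 ribosomal protein genes with some ratios gave 57 single values, of which 55 lay within 0.5 of 0 on the log2 scale. Their median was -0.04 and 33 were below 0. The lowest was Rps29 at -0.61, on its only array, and the highest was Rpl35a at 0.55, with treated RNA in Cy3 in set 2. Rps3, a small subunit protein that also works with NF-kappaB, had a ratio on 4 arrays, with 0.02 and -0.06 in Cy5 and -0.17 and 0.07 in Cy3, so its sign differed within both orientations. Rpl3l, the muscle form of Rpl3, had 0.19 and 0.27 in Cy5 but -0.25 and -0.35 in Cy3, so its sign followed the dye.

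Among translation factors, 2 of the 37 genes measured on all arrays rose and none fell, which is 5.41% against 13.2% of all genes (1 rose without set 1). The genes that rose were Eif1a, which helps the small subunit scan for the start codon, and Eif4a1, the helicase of eIF4F. The median log2 ratio of the 37 was 0.04, against -0.0092 over all genes. In the averages of sets 1, 2 and 3 the factor median was lower, at 0.0044, 0.011 and 0.015. The means of the 37 ranged from -0.19 to 0.43, with 22 above 0 and 15 below. At an unadjusted p under 0.05 in the limma fit there were 10 of 37 (27.0%), the same share as over all genes (2253 genes, 27.0%). For 36 of the 37 the 95% interval from limma lay inside 0.5 on either side of 0, so changes beyond 1.41-fold lay outside it. Eif4ebp2 is among them although its set 3 average was 0.57, and limma draws the spread of a gene toward that of all genes. In RNA from a whole culture, a change in the share of cells that hold a transcript and a change in its amount per cell cannot be told apart.

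**Figure D2:**
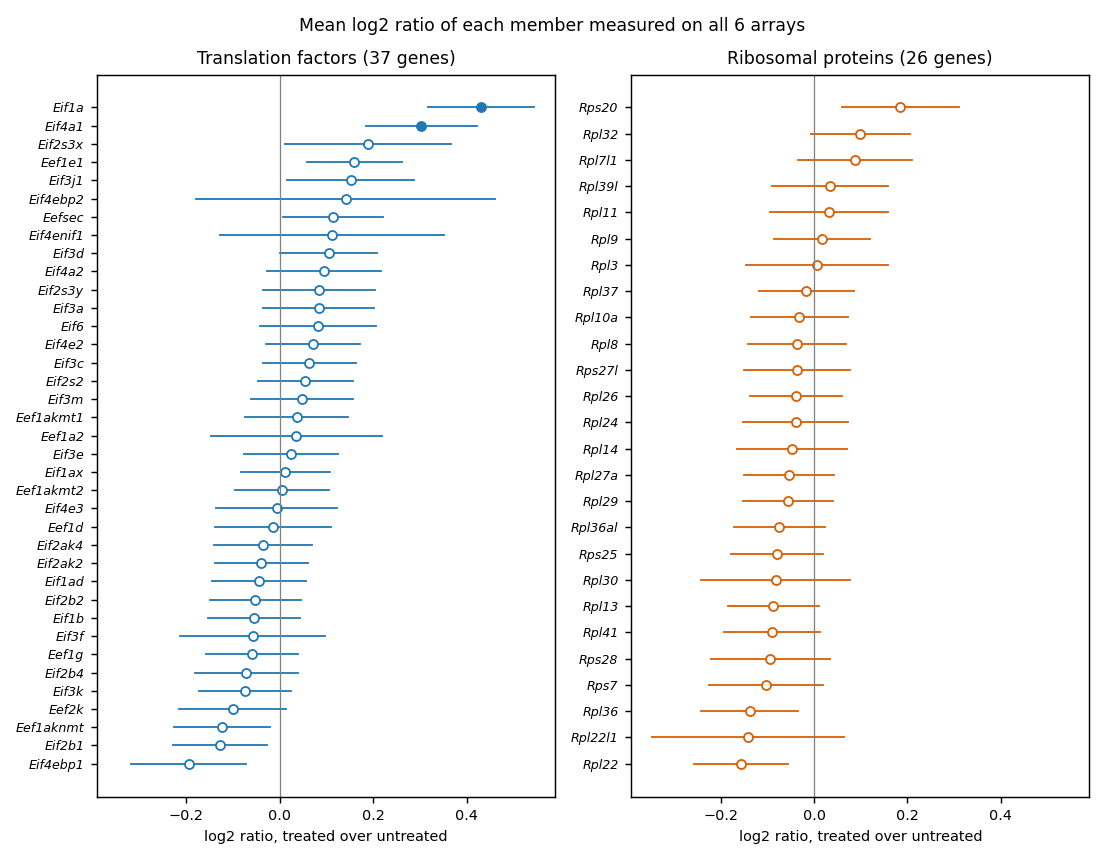
Mean log2 ratio of treated over untreated RNA (points) with its 95% interval from limma (lines) for the 37 factor genes and the 26 ribosomal protein genes with a ratio on all 6 arrays, ordered by the mean. Filled points passed at an adjusted p under 0.05, and these are Eif1a at 0.43 and Eif4a1 at 0.30, while no ribosomal protein gene is filled.

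Eif1a was higher in treated RNA on every array. Its log2 ratios in sets 1, 2 and 3 were 0.41, 0.66 and 0.51 where treated RNA carried Cy5 and 0.29, 0.34 and 0.38 where it carried Cy3. Values of other genes follow this order. All 6 values lay above 0, and the Cy5 arrays lay above the Cy3 arrays. The mean was 0.43 ± 0.08 (SD, n = 3 sets), a 1.35-fold rise with a 95% interval of 0.32 to 0.54 on the log2 scale (limma, adjusted p = 0.00245).

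Eif1ax encodes a near-identical form of eIF1A, and its ratios took the sign of the dye. They were -0.10, -0.29 and -0.12 in Cy5 and 0.13, 0.30 and 0.15 in Cy3, so the orientations did not overlap. The mean was 0.011 ± 0.0040 (SD, n = 3 sets; limma, adjusted p = 0.882, interval -0.08 to 0.11). The small SD comes from opposite values that cancel within each set and is no measure of agreement between arrays. Eif1a lay above Eif1ax on 6 of 6 arrays, by 0.42 ± 0.08 over sets, and an exact sign-flip test over 3 sets gave p = 0.25, the smallest it can give. Probe sequences were not used here, so how far each probe reads its partner's mRNA was not tested.

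Eif4a1 was also above 0 on all 6 arrays. Its ratios were 0.31, 0.37 and 0.40 in Cy5 and 0.19, 0.14 and 0.41 in Cy3. The orientations overlapped, and set 2 in Cy3 was the lowest. The mean was 0.30 ± 0.09 (SD, n = 3 sets), a 1.23-fold rise with an interval of 0.18 to 0.42 (limma, adjusted p = 0.011). The call did not hold without set 1 (0.33, adjusted p = 0.06), with Cy3 arrays alone (0.25, adjusted p = 0.118) or with zeros kept as ratios (adjusted p = 0.0686), while Eif1a passed in all these fits.

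Eif4a2, the other eIF4A helicase of the cap-binding complex, had 0.03, 0.15 and -0.02 in Cy5 and 0.19, 0.21 and 0.01 in Cy3. Its mean of 0.10 ± 0.09 (SD, n = 3 sets) did not pass (limma, adjusted p = 0.285). Eif4a1 lay above Eif4a2 on 4 of 6 arrays, by 0.21 ± 0.18 over sets. An exact sign-flip test over 3 sets gave p = 0.25, the smallest it can give, so it cannot tell whether the genes differ. Eif4a2 was named after its values were seen.

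The 200 bases before the annotated start of Eif4a1 are shown because it is the only gene that rose among the factors with a promoter in the table, where Eif1a has no entry. The capitals mark CACGTG, the palindromic E-box letters read by MYC and related factors, which begin 189 bases before the start.
Eif4a1, chr11:69672424-69672623, minus strand: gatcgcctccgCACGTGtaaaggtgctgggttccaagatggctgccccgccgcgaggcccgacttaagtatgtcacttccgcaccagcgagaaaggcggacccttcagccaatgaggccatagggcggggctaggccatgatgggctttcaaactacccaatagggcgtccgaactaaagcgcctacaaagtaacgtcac
CACGTG, which reads the same on both strands, was found in 11 of 48 factor windows of 300 bases (22.9%) and 8 of 67 ribosomal protein windows (11.9%), against 2349 of 32851 windows of all genes (7.15%). This is a match of letters, and nothing here measures binding.

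**Figure D3:**
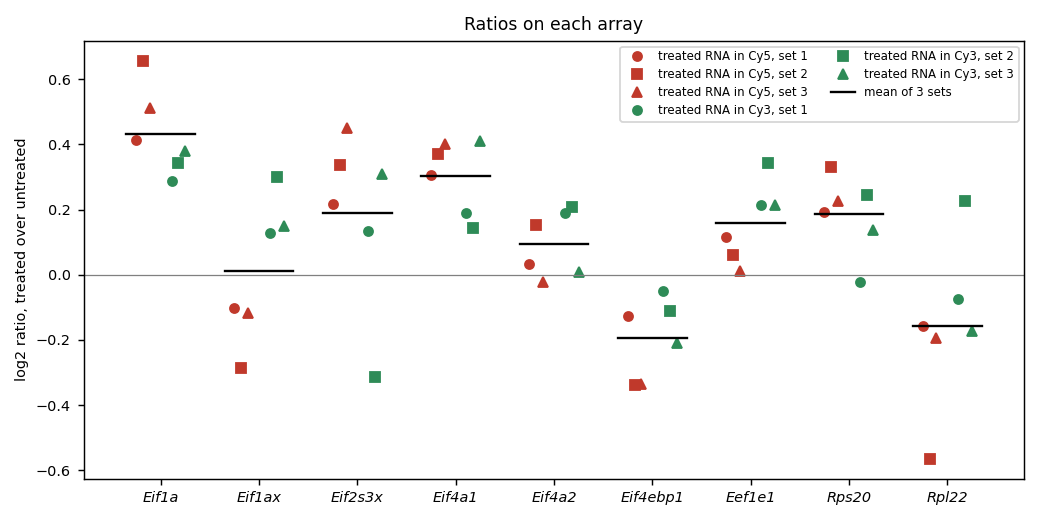
Log2 ratio of treated over untreated RNA on each of the 6 arrays for 9 members, with red for treated RNA in Cy5, green for Cy3, a shape for each set and a bar at the mean of 3 sets. All points of Eif1a and Eif4a1 lie above 0, those of Eif1ax lie below 0 in Cy5 and above 0 in Cy3, and those of Eif4ebp1 all lie below 0.

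None of the other factors of the ternary complex and start codon recognition passed. Eif2s3x, the gamma subunit of eIF2, had 0.22, 0.34 and 0.45 in Cy5 and 0.13, -0.31 and 0.31 in Cy3. It was above 0 on every array but set 2 in Cy3, and its mean of 0.19 ± 0.19 (SD, n = 3 sets) did not pass (limma, adjusted p = 0.163). Without set 2 it did, at 0.28 (adjusted p = 0.0413). Eif2s2, the beta subunit, had a mean of 0.05 ± 0.04, and Eif2s3y, the copy of the gamma subunit on the Y chromosome, had 0.08 ± 0.09. The start-codon factor Eif1b had -0.06 ± 0.03. Eif1, Eif2s1, Eif4g1, Eif5 and Eef2 were not among the annotated symbols and were not analysed here.

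eIF2B, which reloads eIF2 with GTP, had 3 measured subunits and all were slightly below 0 without passing. Eif2b1 was at -0.13 ± 0.04, Eif2b2 at -0.05 ± 0.03 and Eif2b4 at -0.07 ± 0.07 (SD, n = 3 sets). In each the orientations had means of opposite sign. The Cy5 and Cy3 means were -0.27 and 0.01 for Eif2b1, 0.04 and -0.15 for Eif2b2, and 0.07 and -0.21 for Eif2b4. Of the kinases that phosphorylate eIF2, Eif2ak2 (PKR, which senses double-stranded RNA) and Eif2ak4 (GCN2, which senses uncharged tRNA) were both at -0.04. Eif2ak3 (PERK, the kinase of the endoplasmic reticulum) had ratios on only 4 arrays, 0.47, 0.46 and 0.31 in Cy5 and -0.37 in set 3 of Cy3. Its sign followed the dye, and it was not tested.

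Of the 8 measured subunits of eIF3, the scaffold of initiation on the small subunit, none passed. Their means ran from -0.07 (Eif3k) to 0.15 (Eif3j1), with 6 above 0. Averaged over both orientations before turning, the Cy5 over Cy3 ratio was below 0 in all 8, with a median of -0.13, but in Eif3a, Eif3c and Eif3e alone did it hold on every array. Eif3a, the largest subunit, had -0.04, -0.30 and -0.05 in Cy5 but 0.37, 0.28 and 0.24 in Cy3. Eif3c, a core subunit, had -0.13, -0.25 and -0.15 in Cy5 but 0.26, 0.31 and 0.34 in Cy3. With Cy3 arrays alone both were called higher, at 0.30 each (limma, adjusted p = 0.048 and 0.0378), which the Cy5 arrays did not show.

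Among the proteins that hold eIF4E, Eif4ebp1, the repressor that mTOR inactivates by phosphorylation, was below 0 on all 6 arrays. Its ratios were -0.13, -0.34 and -0.34 in Cy5 and -0.05, -0.11 and -0.21 in Cy3. The mean of -0.19 ± 0.10 (SD, n = 3 sets; interval -0.32 to -0.07) missed the threshold (limma, adjusted p = 0.0562), and in the fit on 6 single arrays, which called 17.3% of all genes, it passed (adjusted p = 0.023). Eif4ebp2, its homologue, was set apart by set 3, with -0.03, 0.25 and 0.60 in Cy5 and -0.22, -0.29 and 0.54 in Cy3. Its mean of 0.14 ± 0.38 turned to -0.08 without set 3. Eif4enif1, the eIF4E transporter, was likewise high in set 3, at 0.49 and 0.36, against -0.24 to 0.10 elsewhere. Eif4e, the cap-binding protein, had 3 ratios between -0.06 and 0.05 and was not tested. Eif3i and Eif4g2 had 1 ratio each, 0.02 and -0.01. For the 5 factor genes with several complete probes, the probes' means had the same sign.

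The elongation factors and their modifiers gave 9 measured genes, none of which passed, with means from -0.12 to 0.16. Eef1e1, which also belongs to the multi-tRNA-synthetase complex, was above 0 on every array, at 0.12, 0.06 and 0.01 in Cy5 and 0.22, 0.34 and 0.21 in Cy3. Its mean was 0.16 ± 0.04 (SD, n = 3 sets; limma, adjusted p = 0.058), and it passed in the fit on 6 single arrays (adjusted p = 0.0227). Eef1a2, the form of eEF1A typical of muscle and neurons, ranged from -0.62 to 0.44 across arrays, with a mean of 0.04 ± 0.19. Eef2k, the kinase that inhibits eEF2, was at -0.10 ± 0.08. Eif6, which keeps the subunits apart until the large one is mature, was at 0.08 ± 0.10.

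Counted over arrays, 7 of the 37 factors (18.9%) kept one sign on all 6, against 19.1% of all genes. They were Eif1a, Eif4a1, Eif4e2, Eif3d, Eef1e1, Eefsec and Eif4ebp1, of which the first 6 were above 0. Eif4e2 did so only as the average of 2 probes, neither of which kept one sign by itself.

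No ribosomal protein gene passed in either direction, of 26 tested in the limma fit, against 13.2% of all genes. At an unadjusted p under 0.05 there were 3 (11.5%), Rps20, Rpl22 and Rpl36, against 27.0% of all genes. The fit on 6 single arrays called 1, Rps20, and none passed when any 1 set was left out. The median log2 ratio of the 26 was -0.04, with 7 above 0 and 19 below, and the means ran from -0.16 to 0.18. The 95% interval lay inside 0.5 on either side of 0 for 26 of 26, and the bounds reached from -0.35 to 0.31. None of the 26 kept one sign on all 6 arrays, against 19.1% of all genes. These values describe the 26 measured genes, not the 40 that lacked a ratio on some or all arrays.

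Rps20, a small subunit protein, was the highest. Its ratios were 0.19, 0.33 and 0.23 in Cy5 and -0.02, 0.25 and 0.14 in Cy3, above 0 on every array but set 1 of Cy3. The mean of 0.18 ± 0.10 (SD, n = 3 sets; interval 0.06 to 0.31) did not pass (limma, adjusted p = 0.0703), and in the 6-array fit it did (adjusted p = 0.0306). The other small subunit genes measured were Rps7, Rps25, Rps28 and Rps27l, with means from -0.10 to -0.04. Rps27l, a p53-responsive relative of Rps27, had -0.04 ± 0.08.

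Rpl22, a large subunit protein that can be lost without stopping translation, was the lowest. Its ratios were -0.16, -0.56 and -0.19 in Cy5 and -0.07, 0.22 and -0.17 in Cy3, so set 2 gave both the lowest and the highest value. The mean was -0.16 ± 0.04 (SD, n = 3 sets; limma, adjusted p = 0.0584). Opposite values in set 2 partly cancelled, so this SD is no measure of agreement between arrays. In the fit on 6 single arrays Rpl22 was farther from passing (limma, adjusted p = 0.214), and with Cy3 arrays alone its mean was -0.0076. Rpl22l1, its paralogue, had -0.14, -0.50 and -0.54 in Cy5 and 0.11, 0.48 and -0.26 in Cy3, with a mean of -0.14 ± 0.22. The pair differed by -0.01 ± 0.20 over sets (exact sign-flip test over 3 sets, p = 1), with Rpl22 higher on 2 of 6 arrays. Rpl36 was at -0.14 ± 0.05, with -0.16, -0.48 and -0.17 in Cy5 and -0.14, 0.12 and 0.01 in Cy3.

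Rpl3, which lines the peptidyl transferase centre, showed how far single arrays could stand apart. It had 0.28, 0.47 and 0.26 in Cy5 and -0.54, -0.50 and 0.06 in Cy3, and a mean of 0.0069 ± 0.15 (SD, n = 3 sets). With Cy5 arrays alone it was called higher at 0.34 (limma, adjusted p = 0.0363). With Cy3 arrays alone its mean was -0.32.

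The median of the ribosomal protein ratios was lower in Cy5 than in Cy3 in each of the 3 sets. It was -0.07, -0.31 and -0.09 on the turned Cy5 arrays of sets 1, 2 and 3, and -0.02, 0.16 and 0.03 on the turned Cy3 arrays. Set 2 stood farthest out in both orientations, and averaging within sets brought the medians to -0.04, -0.07 and -0.04. The factor medians ranged from -0.03 to 0.03 in Cy5 and from 0.06 to 0.08 in Cy3.

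**Figure D4:**
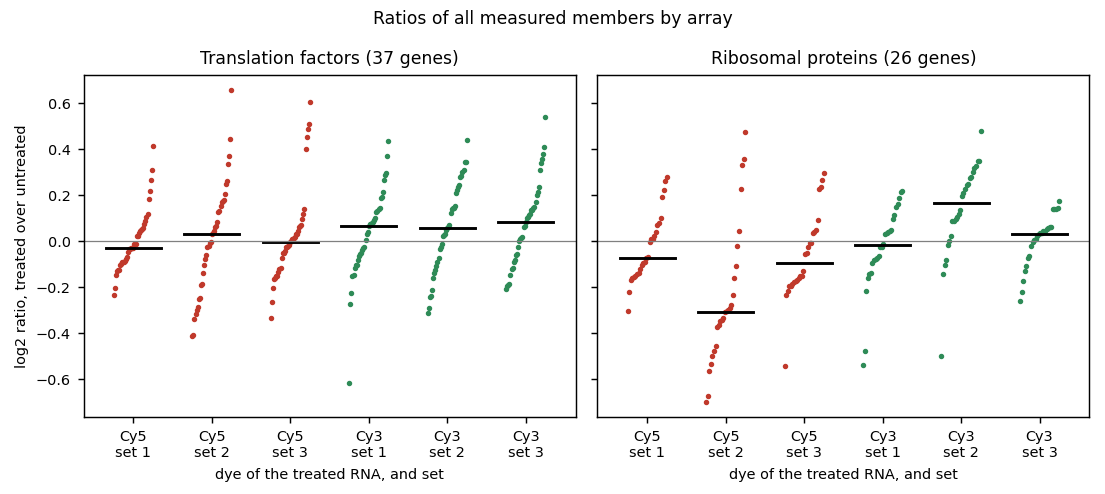
Log2 ratio of treated over untreated RNA of the 37 factor and 26 ribosomal protein genes on each array, with red for treated RNA in Cy5, green for Cy3 and a bar at each array's median. The ribosomal protein medians are -0.07, -0.31 and -0.09 in Cy5 and -0.02, 0.16 and 0.03 in Cy3, and the factor medians stay between -0.03 and 0.08.

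Before turning, the Cy5 over Cy3 ratio averaged within sets had a median of -0.11 over the 26 ribosomal protein genes and 6.06e-05 over all genes, and it was below 0 in 20 of 26 (76.9%) against 4164 of 8331 genes. It ran from -0.25 to 0.33, with Rpl3 the highest. In 19 of 26 (73.1%) it was larger in size than the treated over untreated mean, against 51.0% of all genes. In the limma test of this dye difference 0 of the 26 passed, against 5 of 8331 genes (0.06%), with 9 (34.6%, against 27.8% of all genes) at an unadjusted p under 0.05 and a smallest adjusted p of 0.114. In 7 of 26 (26.9%) the turned ratios were below 0 on all Cy5 arrays and above 0 on all Cy3 arrays, against 6.6% of all genes with that pattern and 13.7% with opposite signs either way round. These were Rpl8, Rpl10a, Rpl13, Rpl14, Rpl29, Rpl36al and Rpl37. Rpl37, a small zinc-binding protein, had -0.30, -0.29 and -0.19 in Cy5 and 0.19, 0.35 and 0.14 in Cy3. The factors with the same pattern, 6 of 37 (16.2%), were Eif1ax, Eif2ak4, Eif3a, Eif3c, Eif3e and Eif4e3.

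Genes that act beside the members, and the member Eef1e1, were read from 7 lists, and in each the count is of genes tested. The share of all genes called was 13.2% in either direction. Of 7 genes listed for the integrated stress response, the response to eIF2 phosphorylation, 3 rose (42.9%) and none fell, with a median of 0.05. The other genes of this list did not pass. Asns was at 0.05, Chac1 at -0.0084 and Nck1 at -0.02, and Impact, at -0.14, was below 0 on every array. Ppp1r15a (GADD34), which directs the phosphatase to eIF2, had 1.64, 1.95 and 1.75 in Cy5 and between 1.41 and 1.64 in Cy3. Its mean was 1.65 ± 0.11 (SD, n = 3 sets), a 3.14-fold rise (limma, adjusted p = 1.46e-05). Ddit3 (CHOP), a stress transcription factor, rose by 1.01 ± 0.06, or 2.02-fold (limma, adjusted p = 5.01e-05), with all 6 arrays between 0.78 and 1.12. Atf4, the transcription factor whose mRNA is translated when eIF2 is phosphorylated, rose by 0.21 ± 0.06 (limma, adjusted p = 0.0285), but did not pass without set 1 (adjusted p = 0.16) or set 2 (0.101), or in either orientation alone (0.0715 and 0.0941).

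Of 12 genes of signalling to translation, 2 rose (16.7%, against 13.2% of all genes called) and none fell, with a median of 0.04. Mtor and Rheb lacked a ratio on some arrays and did not enter the test. Rictor, the defining subunit of mTOR complex 2, rose by 0.43 ± 0.05 (SD, n = 3 sets; limma, adjusted p = 0.0017), with arrays from 0.32 to 0.53. Sesn2, a stress-induced inhibitor of mTOR complex 1, rose by 0.57 ± 0.26 (limma, adjusted p = 0.0127), with set 2 the highest in both orientations, and did not pass with zeros kept as ratios (adjusted p = 0.112). Of 6 genes of termination, recycling and poly(A) binding, 1 rose (16.7%), and the median was 0.10. This was Etf1, the release factor eRF1 that reads stop codons, at 0.31 ± 0.04 (limma, adjusted p = 0.00598). Its arrays ran from 0.16 to 0.27 in Cy5 and from 0.37 to 0.44 in Cy3, without overlap. With Cy5 arrays alone Etf1 did not pass (0.20, limma, adjusted p = 0.0741). Pabpc1 had no ratio on any array, Gspt1 and Gspt2 lacked some, and none of them entered the test.

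Of 22 genes of ribosome biogenesis and RNA polymerase I, 3 rose (13.6%, against 13.2% of all genes called) and none fell. The median was 0.02. Ncl, Npm1, Nop58, Dkc1 and Ltv1 lacked a ratio on some or all arrays and did not enter the test. Taf1a, a subunit of the selectivity factor that brings RNA polymerase I to ribosomal DNA, rose by 0.67 ± 0.20 (SD, n = 3 sets; limma, adjusted p = 0.00327), with set 2 at 1.01 and 0.79 against 0.50 to 0.64 elsewhere, and did not pass with zeros kept as ratios (adjusted p = 0.0626). Mybbp1a, a nucleolar protein, and Nmd3, the export adaptor of the large subunit, both rose by 0.19 ± 0.07 (limma, adjusted p = 0.0436 and 0.0434). Neither passed when any 1 set was left out, and Nmd3 was at -0.06 with Cy5 arrays alone. Of 13 genes of cytosolic aminoacyl-tRNA synthetases and their partners, among them the member Eef1e1, 1 fell (7.69%) and none rose. The median was 0.04. Qars, the glutaminyl-tRNA synthetase, was at -0.37 ± 0.05 (limma, adjusted p = 0.00301), and all 6 arrays lay between -0.44 and -0.28.

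None of the 4 genes of diphthamide synthesis and selenocysteine incorporation passed (median 0.04, limma, 0 at an unadjusted p under 0.05). Of the ribosomal subunit genes outside the naming rule, 4 of 6 probes were lost to zeros. The measured ones, Rplp1 at -0.0059 ± 0.07 and Fau at -0.02 ± 0.08, did not pass. As for other cell types, 1 of 3 lymphocyte markers tested was called, Cd79a at 0.20 ± 0.06 (SD, n = 3 sets; limma, adjusted p = 0.0345), while Ms4a1 at -0.19 and Cd3e at -0.05 were not, nor were the 1 epithelial and the 1 fibroblast marker tested. Of the 5 macrophage markers, Adgre1, an adhesion receptor of mature macrophages, rose by 0.55 ± 0.11 (limma, adjusted p = 0.00149). The other 4 did not pass, and their means were below 0, from -0.11 (Fcgr1) to -0.01 (Lyz2). The part of these markers in the members' ratios was not tested.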

How the data were processed

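RNA from treated and untreated RAW 264.7 cells was compared on 6 dual-channel arrays. The values are log2 ratios of the channels as deposited by the authors, 1 for each of 16281 probes on each array, and the base was read from the values. Scanner, background correction and normalization are not given in the sources used here. Array medians lay between 0.0043 and 0.0159, so the arrays were centred near 0 by an unknown method. Exact zeros (8.99% to 23.9% of an array) were treated as missing.

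Genes were named from the platform annotation, in which 13738 probes had 1 symbol, 52 had several and 2491 had none. Identifiers of 13694 probes were found in RefSeq (GRCm38.p6), which changed 0 symbols. Complete probes with 1 symbol (9968) were averaged by gene to 8331 genes. Each set's pair of turned arrays was averaged to cancel a shared dye effect, and the 3 set averages were tested against 0 with limma 3.58.1 in R 4.3.3 (lmFit and eBayes, two-sided, 2 residual and 4.08 prior degrees of freedom), with Benjamini-Hochberg adjustment over all genes. The dye difference was tested likewise on unturned ratios. The script was tested on simulated data.

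The members, the lists and the tests were chosen with earlier results of these data known. Named genes were every called member, the 3 uncalled members of largest absolute mean in each group, 28 members listed by symbol, and up to 3 called genes of each other list. Other genes named with values were chosen after these were seen. Intensities were not used, so signal over background is unknown and the number of arrays limits the precision.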

Additional observations from a re-analysis of the deposited data

Results flagged for a closer look

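In 13 members every array with treated RNA in Cy5 lay below 0 and every array with treated RNA in Cy3 lay above 0, after turning. Each is given by its Cy5 over Cy3 log2 ratio averaged over 3 sets, and the difference between orientations was tested with limma over all genes. Among translation factors the ratio was -0.18 for Eif1ax, -0.13 for Eif2ak4, -0.21 for Eif3a, -0.24 for Eif3c, -0.15 for Eif3e and -0.15 for Eif4e3. Among ribosomal proteins it was -0.10 for Rpl10a, -0.22 for Rpl13, -0.16 for Rpl14, -0.20 for Rpl29, -0.17 for Rpl36al, -0.24 for Rpl37 and -0.14 for Rpl8. The adjusted p of these 13 ran from 0.114 to 0.287, so none passed. The pattern was seen in 6 of 37 factors (16.2%), 7 of 26 ribosomal proteins (26.9%) and 550 of all 8331 genes (6.6%).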

How the results depend on the processing

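With 6 single arrays and a dye term in place of set averages (no replicate block), 1439 genes were called, 3 factors higher (Eif1a, Eif4a1 and Eef1e1), 1 factor lower (Eif4ebp1) and 1 ribosomal protein higher (Rps20). After turning and with the orientation means removed, no array correlated best with the array of its own set number. This cannot tell whether the set numbers paired the arrays, since a dye effect shared within a set gives negative values there. Leaving out each set in turn gave 499 to 832 genes (499 without set 1), 1 to 3 factors called higher and factor medians of 0.017 to 0.041. With Cy5 arrays alone 1035 genes were called, 3 ribosomal proteins higher (Rpl3, Rpl32 and Rps20) and 1 lower (Rpl37), and the medians were -0.16 in ribosomal proteins and -0.0036 in factors. With Cy3 arrays alone 649 genes were called, and the medians were 0.067 in ribosomal proteins and 0.043 in factors. With zeros kept as ratios 522 genes and 1 factor were called, and the medians were 0 and 0.0078. Quantile normalization gave a factor median of 0.021. Including incomplete probes added 6 ribosomal protein genes, with means from -0.17 to -0.03, and called none. Nmd3 turned to -0.060 with Cy5 arrays alone. The cause of these changes was not tested. In 65 other recomputations these medians moved by less than the spread over sets and these counts by at most 1.5 times. Other scalings moved the median of all genes by under 0.02.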
